A study of Mus musculus with 4 samples.

Results

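Microglia sorted from mouse brains carrying lung cancer metastases were compared with and without whole brain radiation therapy (WBRT), on 1 plate of single cells each. A well entered the comparison with 1000 or more counts outside mitochondrial and spike-in genes and an ERCC spike-in share under 50%. This left 151 wells of 384 with WBRT and 157 of 384 without, 308 of the 804 kept wells of the series. All mice were athymic nude (CAnN.Cg-Foxn1nu/Crl, on a Balb/C background), a strain that lacks a thymus and hence most T cells. Irradiated mice had received 5 fractions of 2 Gy, and their label adds d3 without saying from when the 3 is counted, while the other plate is labelled none. The plate with WBRT carries the tumor stage label not stratified and the plate without carries small, so the effects of plate, tumor stage and irradiation cannot be told apart. The labels name no animals, sort markers or ages. Each group is 1 library, so every difference below is one between 2 libraries, no test across samples was possible, and intervals cover counting error only.

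Microglia are the resident macrophages of the brain. They keep interferon-stimulated genes at a low level until type I interferon binds its receptor, after which a complex that holds STAT2 and IRF9 binds a short DNA element, the interferon-stimulated response element (ISRE), and antiviral effectors and MHC class I genes are transcribed. Ionizing radiation breaks DNA, and p53 then induces genes such as Cdkn1a that halt the cell cycle. Macrophages in tissue repair express another set of genes, often called alternative activation, with growth factors, scavenger receptors and matrix proteins.

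Antiviral effectors were lower with WBRT, as described further on, and several carry the ISRE core in their promoters. The core was searched on both strands as GAAA, any 2 bases and GAAA again, which on the other strand reads TTTC, any 2 bases and TTTC, in the 300 bases from 250 before to 50 after each start in RefSeq (GRCm38.p6). Of 27025 genes with such a window, 1079 (3.993%) held it. Of 40 interferon list members with a window, 25 (62.5%) held it. Among the members that were lower with WBRT at matched depth, as defined below, 7 of 13 with a window did, and among the members that were compared and were not lower, 6 of 11 did. The windows below, written 5′ to 3′ along the gene with the ISRE core in capitals and 20 bases on each side, show 4 genes that were lower and have their copies upstream of the start. In Ifitm3 and Ddx58, also lower, the copies in the window lie just after the start and are not shown. Isg15 encodes a ubiquitin-like modifier, Ifit1 and Ifit3 encode proteins of a complex that binds viral RNA, and Stat2 encodes a subunit of the factor that binds the element. The window of Isg15 lies at chr4:156200855-156200916 on the minus strand and holds 3 overlapping matches. Those of Ifit1 (chr19:34640765-34640833) and Ifit3 (chr19:34583353-34583436) on the plus strand hold 2 each, and that of Stat2 (chr10:128270256-128270305, plus strand) holds 1.
Isg15: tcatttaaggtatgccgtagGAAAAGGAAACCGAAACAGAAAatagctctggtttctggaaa
Ifit1: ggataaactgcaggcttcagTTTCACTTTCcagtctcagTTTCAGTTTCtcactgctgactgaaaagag
Ifit3: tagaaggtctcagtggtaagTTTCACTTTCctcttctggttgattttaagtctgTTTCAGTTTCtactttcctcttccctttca
Stat2: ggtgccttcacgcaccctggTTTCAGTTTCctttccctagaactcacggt

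The libraries held 649107 transcripts with WBRT and 874710 without, with median well counts of 2362 and 4395. The plate with WBRT held less cellular RNA relative to spike-in, with a median ratio of endogenous to ERCC counts of 2.27 against 13.5. Its median ERCC count per well was 1091 against 407. Wells with Malat1, a nuclear noncoding RNA, below 1000 CPM (counts scaled to the same total in every library or well) made up 70.2% with WBRT and 44.6% without, and the ribosomal RNA gene Rn45s stood at 19716 and 3523 CPM. These features moved with the treatment label in every microglia comparison below, and their part in the results was not tested. Each gene was therefore also compared within wells of 1000 to 3000 counts (95 with WBRT, 57 without) and within wells of over 3000 counts (56 and 100). Matching on counts did not match the spike-in ratio, which was 1.79 against 4.35 in the shallow wells and 6.97 against 17.6 in the deep ones. After the data had been seen, wells with a ratio of 5 to 20 (44 with WBRT, 83 without) were compared as well.

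Microglia markers were abundant on both plates, as the label gives. The summed level of 10 microglia markers was 7593 CPM with WBRT and 7149 CPM without, and 150 of 151 and 157 of 157 wells held at least 1 of their transcripts. Markers of T cells, NK cells, B cells and epithelial cells had summed levels of at most 27.5 CPM in either library, and all 6 NK cell markers were at 0 with WBRT. Only 1 of 6 T cell, 1 of 6 B cell and 2 of 5 epithelial markers were listed for these plates. Neutrophil markers summed to 339 CPM with WBRT and 288 CPM without, and those of the oligodendrocyte lineage to 173 and 85.7 CPM. Markers of macrophages from the blood summed to 444 CPM with WBRT and 166 CPM without, and those of border-associated macrophages, which line brain vessels and meninges, to 285 and 56.0 CPM. Of the blood macrophage sums, Vim alone accounted for 281 and 29.7 CPM, and it was the 1 called of the 3 such markers compared. Astrocyte markers reached 1074 CPM with WBRT against 114 CPM, but 89.1% of those counts came from 1 well. Dendritic cell markers summed to 287 and 470 CPM, with 50.1% of the counts without WBRT in 1 well.

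Most antiviral and cell cycle genes compared were lower with WBRT, and 9 of 14 alternative activation genes were higher. Genes of at least 50 CPM in 1 library were compared on the log2 scale of CPM + 5. A gene was called when its levels differed at least 2-fold on that scale and the 95% interval of the ratio did not hold 1. Of 3526 genes compared, 279 (7.91%) were called higher with WBRT and 227 (6.44%) lower. The log2 ratio of all compared genes had a median of 0.04. A call at matched depth also needed a 2-fold difference in the same direction in both depth classes, which 143 genes (4.06%) met upward and 105 (2.98%) downward. The counts of called list members below are to be read beside these shares over all genes.

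**Figure D1:**
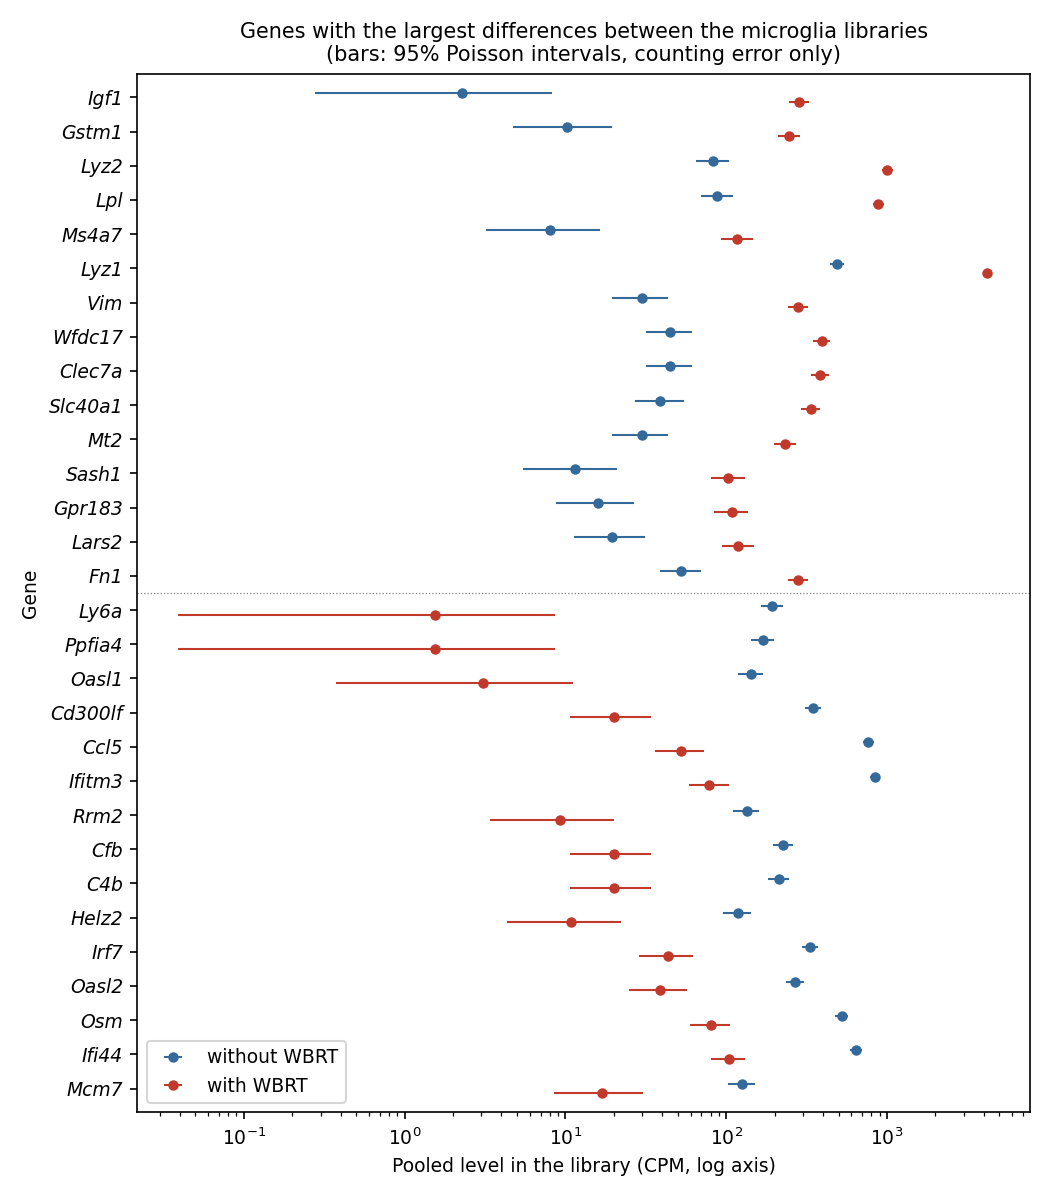
Pooled level in CPM (log axis) with its 95% Poisson interval, with WBRT (red) and without (blue), for the 15 genes with the largest differences upward (top) and the 15 with the largest differences downward (bottom) among genes called at matched depth. The genes run from Igf1 at 285 against 2.29 CPM to Ly6a at 1.54 against 193 CPM. They were chosen for large differences in these same counts, so that the 2 intervals lie apart in all 30 adds no support.

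Antiviral effectors were lower across the list. Of 31 members compared, 23 were called lower with WBRT, 1 was called higher, and the median log2 ratio was -1.51. Ifitm3, which keeps viruses from entering cells, stood at 78.6 CPM with WBRT against 846 CPM, 10.8-fold lower (8.10 to 14.6). Ifitm3 transcripts were seen in 16.6% of wells with WBRT (95% exact binomial interval 11.0 to 23.5) and 87.3% without (81.0 to 92.0). With every well thinned to 1000 transcripts these shares were 6.62% and 53.5%. Ly6a, the surface protein also called Sca-1, was at 1 count with WBRT and 169 counts without, or 1.54 CPM with WBRT against 193 CPM. Oasl1 and Oasl2, relatives of the oligoadenylate synthetases that sense double-stranded RNA, stood at 3.08 CPM with WBRT against 143 CPM and at 38.5 CPM with WBRT against 268 CPM. Oasl1 was seen in 1 well with WBRT. Ly6e, another Ly6 family member, was the most abundant effector and was 2.28-fold lower (2.10 to 2.47), at 1215 CPM with WBRT against 2768 CPM. Isg15, Ifit1 and Ifit3, chosen for their promoter windows after their values had been seen, were 4.27-fold lower (2.68 to 7.16), 3.32-fold lower (2.32 to 4.85) and 4.31-fold lower (3.14 to 6.03). The member that was higher was Ifi27l1, listed under its other symbol Ifi27, at 75.5 CPM with WBRT against 17.1 CPM, while its relative Ifi27l2a was 5.59-fold lower (4.21 to 7.54). Ifi27l1 was named after its value had been seen, as was Ifi27l2a.

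The antiviral difference was present in both depth classes. In wells of 1000 to 3000 counts Ifitm3 stood at 81.7 against 1064 CPM, and in deeper wells at 77.3 against 813 CPM. The list median was -2.20 in the shallow wells and -1.41 in the deep wells. It was -1.13 in wells with at least 1000 CPM of Malat1, -2.05 in wells below that limit and -1.10 in wells with a spike-in ratio of 5 to 20. At matched depth, 18 of the 23 members stayed called lower. Rtp4, Ifih1 and Rsad2 were not among them because their shallow levels were close, with Rtp4 at 71.5 against 62.1 CPM. Eif2ak2 and Ifi204, the other two, differed by less than 2-fold in the deep wells. These 5 genes were named after their values had been seen.

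The difference was seen in most single wells. The summed level of the antiviral list per well ran from 466 CPM through a median of 7932.5 CPM to 26040 CPM without WBRT, and from 0 through 1734.6 to 18053 CPM with WBRT. Of the 151 wells with WBRT, 141 (93.4%) lay below the lower quartile of the wells without WBRT, 5981.8 CPM, and 3 lay above the upper quartile. The ranges of the 2 plates overlapped. The median well stood at 1761.2 CPM in shallow and 1724.9 CPM in deep wells with WBRT, against 8201.2 and 7564.6 CPM without. The level per well was nearly unrelated to Malat1 on either plate, with Spearman's rho of 0.03 over 151 wells and -0.05 over 157, a description across wells that share a library and differ in depth.

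**Figure D2:**
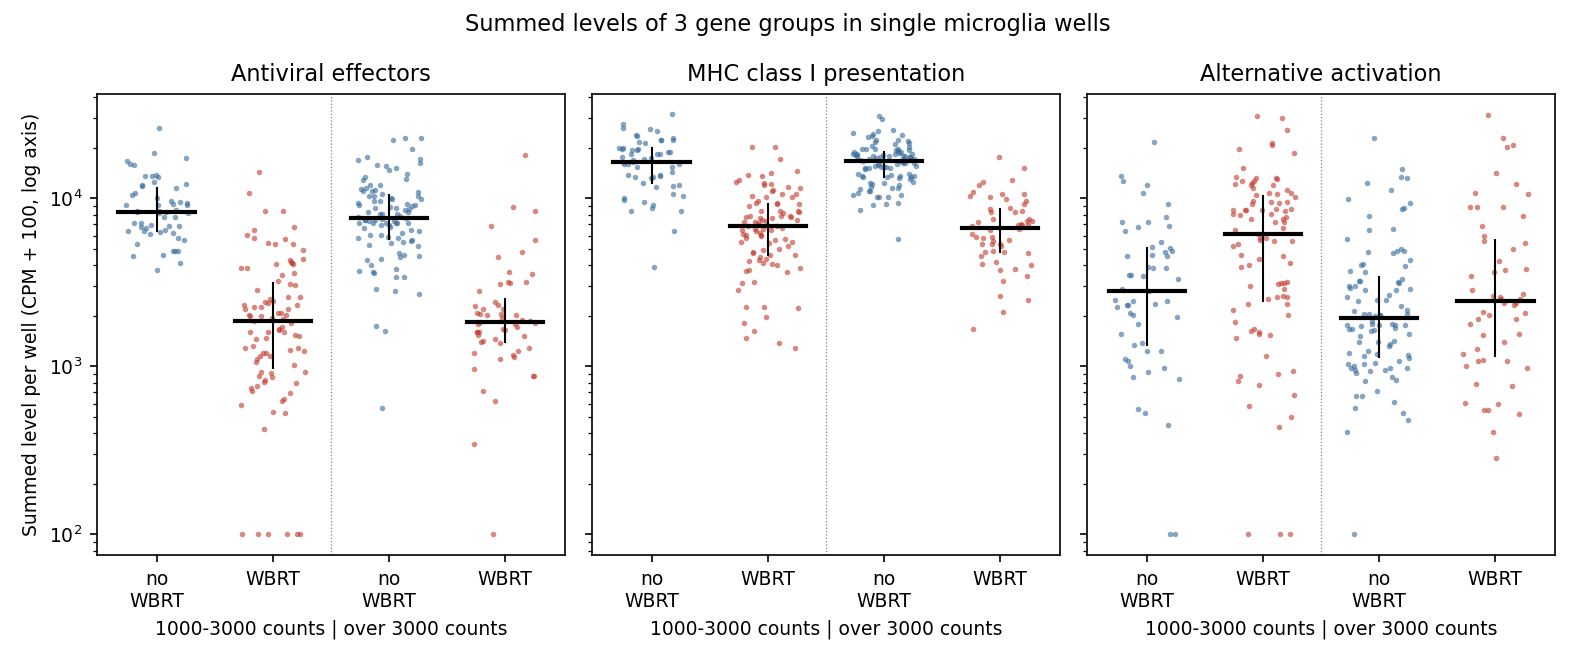
Summed level per well (CPM + 100, log axis) of the antiviral effector, MHC class I and alternative activation lists, in wells of 1000 to 3000 counts (left of each panel) and over 3000 counts (right), without WBRT (blue) and with WBRT (red). Each point is 1 well, thick bars are medians and thin bars the quartiles. Antiviral medians of 1761.2 and 1724.9 CPM with WBRT stand against 8201.2 and 7564.6 CPM without, while the alternative activation levels overlap broadly.

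Among the 7 interferon transcription factors, 2 were called lower and none higher (6.44% and 7.91% over all genes), with a median log2 ratio of -0.55. That median was -0.96 in shallow and -0.39 in deep wells. It was -0.10 in wells with at least 1000 CPM of Malat1, -1.33 below that limit and -0.34 at a spike-in ratio of 5 to 20. Irf7, the factor that amplifies type I interferon production, stood at 43.1 CPM with WBRT against 334 CPM, 7.74-fold lower (5.24 to 11.9). Stat2 stood at 52.4 CPM with WBRT against 146 CPM, 2.79-fold lower (1.90 to 4.21). Irf1 at 77.0 CPM with WBRT against 115 CPM and Irf8, a lineage factor of microglia, at 566 CPM with WBRT against 745 CPM did not reach the 2-fold rule. The spread within the list was therefore wide, from 7.74-fold lower for Irf7 to 1.33-fold higher for Irf2. Helz2, a helicase that also responds to interferon, was 10.9-fold lower (5.11 to 27.8), at 10.8 CPM with WBRT against 118 CPM. Of the 3 interferon-induced GTPases compared, Irgm1 alone was called, at 24.6 CPM with WBRT against 68.6 CPM, and it was not called at matched depth.

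MHC class I genes, which present peptides to cytotoxic T cells, were lower with a median log2 ratio of -0.92 over 10 members. B2m, the light chain shared by all class I molecules, stood at 2978 CPM with WBRT against 7609.8 CPM, 2.56-fold lower (2.43 to 2.69). The heavy chain genes H2-K1 and H2-D1 stood at 1034 CPM with WBRT against 2829 CPM and at 2228 CPM with WBRT against 4261 CPM. H2-K1 was 2.74-fold lower (2.51 to 2.99) and called, and H2-D1 was 1.91-fold lower (1.80 to 2.03) and not called. Tap1, a subunit of the peptide transporter, was 4.93-fold lower (2.80 to 9.37), at 21.6 CPM with WBRT against 106 CPM. The 3 called members, B2m, H2-K1 and Tap1, were also called at matched depth, and all 10 members were lower in the library with WBRT. Well by well, the summed class I level was below the lower quartile of the other plate in 142 of 151 wells with WBRT. The median of the list stayed between -1.09 and -0.83 in the 2 depth classes, in wells rich or poor in Malat1 and in wells with a spike-in ratio of 5 to 20.

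MHC class II levels differed between the depth classes. H2-Aa, the alpha chain of I-A, stood at 172 CPM with WBRT against 390.2 CPM, 2.27-fold lower (1.84 to 2.85), and H2-Eb1, the beta chain of I-E, at 69.4 CPM with WBRT against 266 CPM. In shallow wells H2-Aa was at 451 CPM with WBRT and 301 CPM without, and in deep wells at 50.8 and 403 CPM, so the direction turned. Of the H2-Aa counts, 55.1% came from 1 well with WBRT and 61.9% from 1 well without. Cd74, the invariant chain, had 75.4% of its counts without WBRT in 1 well. The list's median log2 ratio was -0.74 in all wells, 0.29 in shallow and -2.13 in deep wells, and neither called member was called at matched depth.

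Cell cycle genes were lower with WBRT. Of 7 S phase genes compared, 5 were called lower and none higher, with a median log2 ratio of -1.90. Rrm2, a subunit of ribonucleotide reductase, stood at 9.24 CPM with WBRT against 134 CPM on 6 and 117 counts, 14.5-fold lower (6.45 to 40.2). Mcm7, a subunit of the replicative helicase, was 7.36-fold lower (3.95 to 15.2), at 16.9 CPM with WBRT against 125 CPM, and the DNA ligase Lig1 was 6.56-fold lower (2.82 to 18.7). Mcm3 and Mcm5 were the other two called. Of 8 genes of G2 and mitosis, 6 were called lower and none higher, with a median of -1.45. Top2a, the topoisomerase of dividing cells, had 1 count with WBRT and 87 without. Cdk1, the mitotic kinase, stood at 7.70 CPM with WBRT against 62.9 CPM, and Stmn1, a microtubule regulator, at 13.9 CPM with WBRT against 80.0 CPM. Mki67, the proliferation marker, stood at 20.03 CPM with WBRT against 54.9 CPM, but in shallow wells it was at 25.5 against 8.87 CPM. The remaining called members were Hmgb2 and H2afx.

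These levels came from few wells. Top2a was seen in 0.662% of wells with WBRT and 22.9% without, and 1 well held 41.2% of the Rrm2 counts without WBRT. At matched depth 3 of the S phase genes and 5 of the G2 and mitosis genes stayed called lower. With a spike-in ratio of 5 to 20, the S phase median was -0.83 and that of G2 and mitosis -1.64. The E2F element, searched as TTTCCCGC or TTTGGCGC on both strands, was in 486 of 27025 promoter windows (1.798%) and in 6 of 42 windows of cell cycle list members (14.3%). Among the members lower at matched depth, 1 of 6 with a window held it, and among those compared and not lower 0 of 3 did. The element is the site at which E2F factors drive S phase genes. The window of Mcm7, the 1 such lower member, at chr5:138172021-138172068 on the minus strand, holds 1 copy upstream of the start, shown in capitals.
Mcm7: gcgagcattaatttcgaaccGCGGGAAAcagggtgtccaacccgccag

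Targets of p53 were higher in part in pooled levels, but their summed level was lower in most single wells. Of 12 compared, 3 were called higher and none lower, with a median log2 ratio of 0.56, and none of the 3 was called at matched depth. The median well sum was 1447.3 CPM with WBRT against 2821.5 CPM. With WBRT, 106 wells (70.2%) lay below the median of the other plate, and 34 (22.5%) above its upper quartile. The median well stood at 1210.9 CPM with WBRT against 1767.7 CPM in shallow wells, but at 4188.5 against 3510.7 CPM in deep wells. Cdkn1a, the inhibitor of cyclin-dependent kinases, stood at 1973 CPM with WBRT against 927 CPM, 2.13-fold higher (1.95 to 2.33). In deep wells it was at 2539 against 975 CPM, and in shallow wells at 664 against 603 CPM, where it differed little. Cdkn1a was seen in a smaller share of wells with WBRT than without, 72.2% against 81.5%, and after thinning in 46.4% against 47.1%. The list median was -0.61 in wells with Malat1 below 1000 CPM, the other sign, and 0.89 in wells with at least that level. It was 0.28 in shallow wells, 0.76 in deep wells and 0.70 at a spike-in ratio of 5 to 20. Ccng1, which encodes cyclin G1, was 2.28-fold higher (1.57 to 3.36) and Gadd45g, a stress sensor, was 2.54-fold higher (1.66 to 3.95). Btg2, an antiproliferative gene that p53 also induces, was 1.49-fold lower (1.36 to 1.62) and not called. No DNA repair gene of the 24 listed reached 50 CPM in either library.

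Repair and alternative activation genes were higher with WBRT. Of 14 members compared, 9 were called higher, and all 9 were called at matched depth. The median log2 ratio was 1.85. Igf1, insulin-like growth factor 1, had 185 counts with WBRT and 2 without, or 285 CPM with WBRT against 2.29 CPM. It was seen in 60 of 151 wells with WBRT (39.7%, interval 31.9 to 48.0) and in 2 of 157 without. In shallow wells Igf1 stood at 608 against 17.7 CPM, and in deep wells at 146 CPM against 0 counts. Clec7a, the receptor dectin-1 for fungal glucans, stood at 384 CPM with WBRT against 44.6 CPM, 8.61-fold higher (6.12 to 12.4). Ms4a7, which marks several macrophage types, had 76 and 7 counts and was 14.6-fold higher (6.77 to 37.6). Fn1, the matrix protein fibronectin, was 5.32-fold higher (3.84 to 7.54), with 33.8% of its counts with WBRT from 1 well. In wells with a spike-in ratio of 5 to 20, Ms4a7 was 3.90-fold higher (1.53 to 11.8) and Fn1 2.96-fold higher (1.88 to 4.77), and the list median was 0.89. The scavenger receptor Msr1 was 3.46-fold higher (2.74 to 4.39), at 399 CPM with WBRT against 116 CPM. Spp1, osteopontin, was the most abundant member and was not called, at 2809 CPM with WBRT against 2144 CPM. Vegfa, the angiogenic factor, was lower, at 21.6 CPM with WBRT against 83.5 CPM, but was not called at matched depth.

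Border-associated macrophage markers moved with this list, and their part in it was not tested beyond the values that follow. Mrc1, the mannose receptor, stood at 84.8 CPM with WBRT against 18.3 CPM, the chemokine Pf4 at 67.8 CPM with WBRT against 5.72 CPM, and Folr2, a folate receptor, at 63.2 CPM with WBRT against 18.3 CPM. All 3 were called higher and are also members of the alternative activation list. A transcript of any of the 7 border-associated macrophage markers was seen in 66 of 151 wells with WBRT and 26 of 157 without. In wells with none of these transcripts (85 with WBRT, 131 without), a subset added once the data had been seen, the level of Igf1 was 211 CPM against 0 counts. There Clec7a was 9.04-fold higher (6.10 to 13.8), Msr1 3.33-fold higher (2.48 to 4.48) and Ms4a7 41.6-fold higher (6.73 to 1718). Fn1 was 3.11-fold higher (2.09 to 4.68) there, less than in all wells. In those wells 6 list members were called higher, and Mrc1, Pf4 and Folr2 are at 0 by construction. These 3 genes enter the list median as no difference. Its value there, 0.62 against 1.85 in all wells, is therefore partly set by the choice of wells.

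The alternative activation level varied widely within each plate. Its sum per well ran from 0 through a median of 2048.8 CPM to 22849 CPM without WBRT, and from 0 through 4145.4 to 31232 CPM with WBRT. Of the wells with WBRT, 75 (49.7%) lay above the upper quartile of the other plate, and 27 (17.9%) lay below its lower quartile. These shares are over all depths. The median well stood at 6014 CPM with WBRT against 2722.7 CPM in shallow wells, but at 2353.9 against 1827.3 CPM in deep wells. With WBRT the antiviral level was much the same in the 60 wells with an Igf1 transcript, at a median of 1632.9 CPM, as in the 91 without one, at 1755.3 CPM. Those wells also had similar median counts, 2415.3 and 2353.6. Across the 151 wells, the antiviral and the alternative activation sums had a Spearman's rho of -0.13 and a Pearson's r of -0.18, a weak relation between wells that share a library and a total. The alternative activation sum had a rho with Malat1 of -0.22 over these wells, 0.04 in the 95 shallow and -0.38 in the 56 deep ones. Without WBRT that rho was -0.20 over 157 wells. With the spike-in ratio it was -0.21 with WBRT and -0.09 without.

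Lipid genes differed in single members, with 6 of 17 called higher, 3 of them at matched depth, none lower and a median log2 ratio of 0.24. The shares called higher over all genes were 7.91%, and 4.06% at matched depth. Lpl, the lipoprotein lipase, stood at 884 CPM with WBRT against 88.1 CPM, and its transcripts were seen in 54.3% against 22.9% of wells (37.1% against 7.64% after thinning). It was 10.04-fold higher (7.91 to 12.9) in all wells, 4.18-fold higher (2.98 to 5.90) in wells with at least 1000 CPM of Malat1 and 5.37-fold higher (3.96 to 7.44) at a spike-in ratio of 5 to 20. Fabp5, a fatty acid carrier, was 4.23-fold higher (3.58 to 5.01), at 905 CPM with WBRT against 214 CPM, but 1.21-fold higher (0.873 to 1.66) and not called in wells with at least 1000 CPM of Malat1. Lipa, the lysosomal acid lipase, was 2.35-fold higher (1.89 to 2.93). Apoe, the main lipid carrier of the brain and the most abundant member, stood at 30823 CPM with WBRT against 33203 CPM and differed little. Lpl, Fabp5 and Msr1 were called at matched depth too.

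Iron and heme genes differed in single members. Of 10 compared, 4 were called higher and 1 lower, of which 2 and 1 at matched depth, with a median log2 ratio of 0.78. All genes compared had 7.91% called higher and 6.44% lower, and 4.06% and 2.98% at matched depth. Slc40a1, the iron exporter ferroportin, stood at 335 CPM with WBRT against 38.9 CPM, 8.61-fold higher (5.97 to 12.7). Hmox1, the enzyme that breaks down heme, stood at 2729 CPM with WBRT against 671 CPM, and Ftl1, the ferritin light chain, at 20731 CPM with WBRT against 7645 CPM. Slc48a1, a heme transporter, was 3.06-fold higher (2.30 to 4.11). Cp, the ferroxidase ceruloplasmin, was 5.22-fold lower (3.50 to 8.06), at 43.2 CPM with WBRT against 225 CPM. In wells with a spike-in ratio of 5 to 20 the difference in Hmox1 was 0.27 and that in Ftl1 0.54 on the log2 scale, below the 2-fold rule, whereas Slc40a1 was 4.32-fold higher (2.58 to 7.54) there. The list median was 1.36 in shallow wells, 0.58 in deep wells and 0.35 at that ratio.

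Antioxidant genes followed a like pattern, with 6 of 17 called higher and none lower and a median log2 ratio of 0.82. The share called higher over all genes was 7.91%. Gclm, a subunit of the enzyme that starts glutathione synthesis, was 4.97-fold higher (2.82 to 9.25), and Prdx6, a peroxiredoxin, was 3.81-fold higher (2.15 to 7.06). Mt2, a metallothionein that binds zinc, stood at 233 CPM with WBRT against 29.7 CPM, while its neighbour in function Mt1 was 1.35-fold higher (1.21 to 1.50) and not called. Gstm1, a glutathione transferase, stood at 245 CPM with WBRT against 10.3 CPM, but 1 well held 58.5% of its counts with WBRT. With the top well of each library left out, Gstm1 was at 105 against 6.92 CPM. The list median was 0.03 in wells with a spike-in ratio of 5 to 20.

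Lysosomal genes differed in single members, with 6 of 29 called higher, none lower and a median log2 ratio of 0.04. Lyz1 and Lyz2, the 2 lysozymes, stood at 4156 CPM with WBRT against 489.6 CPM and at 1003 CPM with WBRT against 82.3 CPM. They are near-identical copies whose reads may not be told apart. Gpnmb, a glycoprotein of lipid-laden macrophages, was 11.7-fold higher (5.02 to 33.3), on 52 and 6 counts. The proteases Ctsd, at 9666 CPM with WBRT against 9421 CPM, and Ctsb, at 10657 CPM with WBRT against 6429 CPM, were the most abundant and were not called. Genes of disease-associated microglia, a state described in neurodegeneration, had 8 of 27 members higher and 2 lower. The lower ones were B2m and Cd52, the latter named after its value had been seen. Of the 18 scavenger and innate receptors, 4 were called higher and 1, Fcgr2b, lower. Over all genes compared, 7.91% were called higher and 6.44% lower. Clec4n, the receptor dectin-2, was 4.71-fold higher (2.44 to 9.84).

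Chemokines and cytokines moved in both directions. Of 15 chemokines, 4 were called higher and 4 lower. Ccl5, which draws T cells and monocytes, stood at 52.4 CPM with WBRT against 763 CPM, 14.6-fold lower (10.3 to 21.2), and its highest well reached 571.5 CPM with WBRT and 9731.3 CPM without. Cxcl13, which draws B cells, was the most abundant chemokine and was 2.78-fold lower (2.61 to 2.96), at 1862 CPM with WBRT against 5176 CPM. Its median well was at 180.8 CPM with WBRT against 4430.1 CPM, and its highest wells were at 26233 and 27053 CPM. Cxcl13 was seen in 89 of 151 wells with WBRT and in 153 of 157 without. Ccl4 was 2.33-fold lower (2.15 to 2.54) but differed by less than 2-fold in deep wells. Ccl8 was 8.21-fold higher (4.31 to 17.2), at 103 CPM with WBRT against 12.6 CPM, and Cxcl2 was 3.81-fold higher (2.61 to 5.72), with 73.2% of its counts with WBRT in 1 well. Of 11 cytokines and growth factors, 4 were called higher and 2 lower, and Igf1 alone was called higher at matched depth. Osm, oncostatin M, stood at 80.2 CPM with WBRT against 521 CPM, 6.50-fold lower (4.88 to 8.85). Tnf, tumor necrosis factor, was 2.98-fold higher (2.60 to 3.43), yet in shallow wells it was at 174 against 159.6 CPM. Il1b, interleukin 1 beta, was not called, at 1122 CPM with WBRT against 1953 CPM. Of 7 chemokine receptors none was called higher and 2 were called lower, Ccrl2 and Cmklr1, neither of them at matched depth. Over all genes the shares called were 7.91% higher and 6.44% lower, and at matched depth 4.06% and 2.98%.

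Several complement and checkpoint genes were lower. Of 11 complement genes, 3 were called lower, all at matched depth, and 1 higher. Among all genes compared, 6.44% were called lower, 2.98% at matched depth, and 7.91% higher. C4b stood at 20.03 CPM with WBRT against 212 CPM, Cfb, the protease of the alternative pathway, at 20.03 CPM with WBRT against 226 CPM, and C3, on which both pathways converge, at 35.4 CPM with WBRT against 160.1 CPM. C1qb, a subunit of the initiating complex, was not called, at 7005 CPM with WBRT against 7756 CPM. Of 9 checkpoint and costimulation genes, 3 were called lower. Lag3, an inhibitory receptor, stood at 49.3 CPM with WBRT against 255 CPM, and Lgals9, a galectin ligand, at 680.1 CPM with WBRT against 1455 CPM. Siglec1, the sialoadhesin of macrophages, was 2.30-fold lower (1.68 to 3.18). Cd300lf, an inhibitory receptor of myeloid cells, was 17.3-fold lower (9.96 to 32.9), at 20.03 CPM with WBRT against 347 CPM.

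Of 24 identity genes of microglia compared, 2 were called higher and 1 lower, near the shares over all genes (7.91% and 6.44%), with a median log2 ratio of 0.15. P2ry12, an ADP receptor of homeostatic microglia, stood at 466 CPM with WBRT against 336 CPM, Tmem119 at 583 CPM with WBRT against 514 CPM and Cx3cr1, the fractalkine receptor, at 1539 CPM with WBRT against 1889 CPM. Fcrls was 3.43-fold higher (2.68 to 4.41), at 361 CPM with WBRT against 105 CPM, and Mertk, a receptor for dying cells, was 2.36-fold higher (1.50 to 3.76). Crybb1, a gene of young microglia, was 6.47-fold lower (2.96 to 16.8), at 10.8 CPM with WBRT against 69.7 CPM. Siglech was 1.73-fold higher (1.42 to 2.11) and not called. Vim, vimentin, which is among the markers of blood macrophages, was 9.44-fold higher (6.23 to 14.8), at 281 CPM with WBRT against 29.7 CPM. Wfdc17, a secreted protein of activated macrophages, was 8.82-fold higher (6.27 to 12.7) in all wells, 3.05-fold higher (1.72 to 5.54) in wells with at least 1000 CPM of Malat1 and 3.97-fold higher (2.37 to 6.98) at a spike-in ratio of 5 to 20.

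In pooled levels, immediate early genes, which many stimuli induce within minutes, differed mainly in shallow wells. Of 20 compared, 3 were called lower and none higher, and none at matched depth. The orphan receptor Nr4a1 stood at 514 CPM with WBRT against 1111 CPM, but at 721 against 1192 CPM in deep wells, and Fosl2 was 2.51-fold lower (1.89 to 3.39). Nr4a2 was the third. Fos stood at 2726 CPM with WBRT against 2992 CPM and was not called. Its median well was at 68.6 CPM with WBRT against 2358.5 CPM, and it was seen in 76 of 151 and 143 of 157 wells. The summed list level had a median well of 1941.2 CPM with WBRT against 22269 CPM. In deep wells its quartiles were 1439.9 and 46157 CPM with WBRT, a wider spread than 19899 and 33905 CPM without, around medians of 23721 and 26886 CPM. The list median was -1.86 in shallow wells, -0.11 in deep wells and 0.20 at a spike-in ratio of 5 to 20. Nuclear noncoding RNAs had 1 of 5 called lower, Gas5, and a median that went from -1.33 in shallow wells to 0.72 at that ratio. Of 11 heat shock genes, 1 was called higher, Hspa1a, and not at matched depth. Of 16 glycolysis and hypoxia genes, 2 were called higher, Bnip3 and Egln3, and 1 lower, the glucose transporter Slc2a1. The counts for heat shock and for glycolysis and hypoxia were near the shares over all genes (7.91% higher and 6.44% lower). The 42 genes of oxidative phosphorylation had none called and a median of 0.01, with Cox4i1 at 319 CPM with WBRT against 334 CPM.

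**Figure D3:**
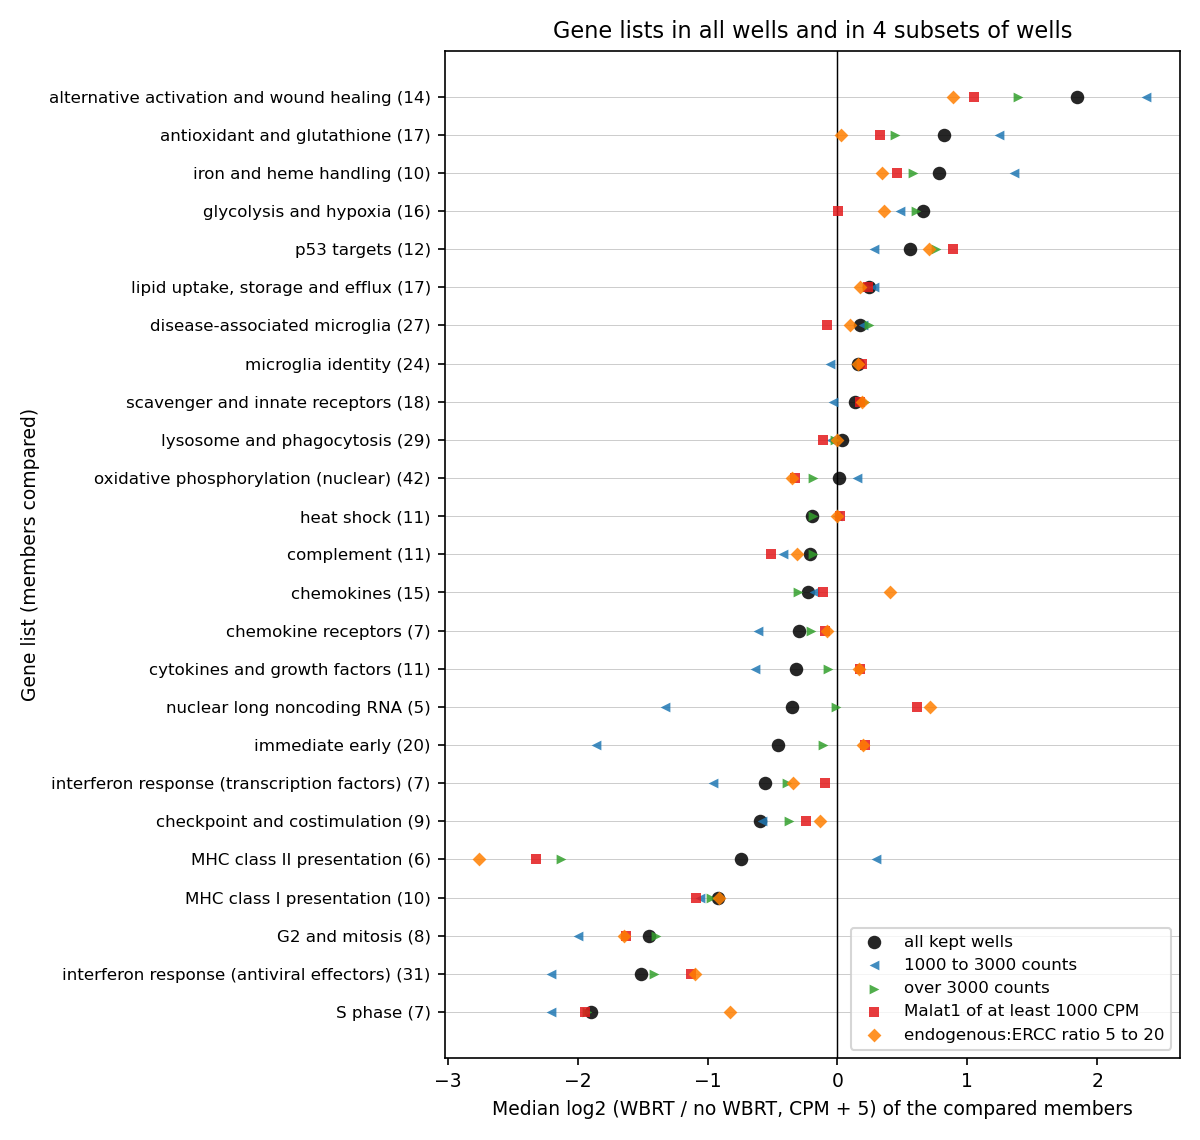
Median log2 ratio (WBRT over none, CPM + 5) of the compared members of each gene list with at least 5 of them, in all kept wells (circles), in the 2 depth classes (triangles), in wells with at least 1000 CPM of Malat1 (squares) and in wells with an endogenous to ERCC ratio of 5 to 20 (diamonds). Antiviral effectors lie between -2.20 and -1.10 and alternative activation between 0.89 and 2.38. Many other lists have medians on both sides of 0, among them MHC class II, immediate early, noncoding RNA, cytokines, chemokines and oxidative phosphorylation.

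The 2 depth classes agreed in direction for most called genes. Of the 279 genes called higher, 256 were higher in both classes, and of the 227 called lower, 206 were lower in both. The other direction was found in shallow wells for 21 and 20 of them and in deep wells for none. Called within the class alone, 269 genes were higher and 355 lower in shallow wells, and 312 and 227 in deep wells. The deep wells held 453194 and 761908 transcripts and the shallow wells 195913 and 112802, so the shallow comparison had the larger counting error. Sash1, a scaffold protein, was higher in both classes, at 117 against 8.87 CPM and 97.1 against 11.8 CPM. Gpr183, the oxysterol receptor, was at 81.7 CPM against 0 counts and at 119 against 18.4 CPM. Lars2, the mitochondrial leucyl-tRNA synthetase, was 6.10-fold higher (3.58 to 11.0).

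Some differences were smaller in wells chosen by Malat1 or by the spike-in ratio. Among list members, markers and the genes with the largest ratios, 55 were called higher and 68 lower. In wells with at least 1000 CPM of Malat1, 40 and 53 of them stayed called, and 21 and 12 were smaller by over 1.5-fold. At a spike-in ratio of 5 to 20, 37 and 54 stayed called, and 21 and 14 were smaller by that much. Over all genes compared, 193 of the 279 called higher and 136 of the 227 called lower were also called in the Malat1 wells, with the 50 CPM minimum applied anew there. Of the higher genes named here, Ccng1, Folr2, Ftl1, Lipa and Slc48a1 were called in neither subset, Bnip3, Ccl8, Fabp5 and Fn1 not in the first, and Clec4n, Gclm, Gpnmb, Hmox1, Mrc1 and Pf4 not in the second. Of the lower genes, Ccl4, Ccrl2, Ddx58, Eif2ak2, Fosl2, Gas5, Ifi204, Mcm3, Nr4a1 and Rsad2 were called in neither, Cmklr1, H2afx and Stat2 not in the first, and Hmgb2, Ifih1, Lig1 and Ly6e not in the second. A lost call did not always mean a difference smaller by over 1.5-fold. Ddx58, Eif2ak2, Ifi204 and Mcm3 were not smaller by that much in either subset. Neither were Cmklr1, Stat2, Hmgb2, Ifih1 and Ly6e in the subset where they were not called. Ccl5 was 7.09-fold lower (4.83 to 10.7) and Helz2 6.05-fold lower (2.71 to 15.9) at the spike-in ratio of 5 to 20, and Osm was 3.51-fold lower (2.60 to 4.80) and Lyz1 3.61-fold higher (3.08 to 4.23) with at least 1000 CPM of Malat1.

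**Figure D4:**
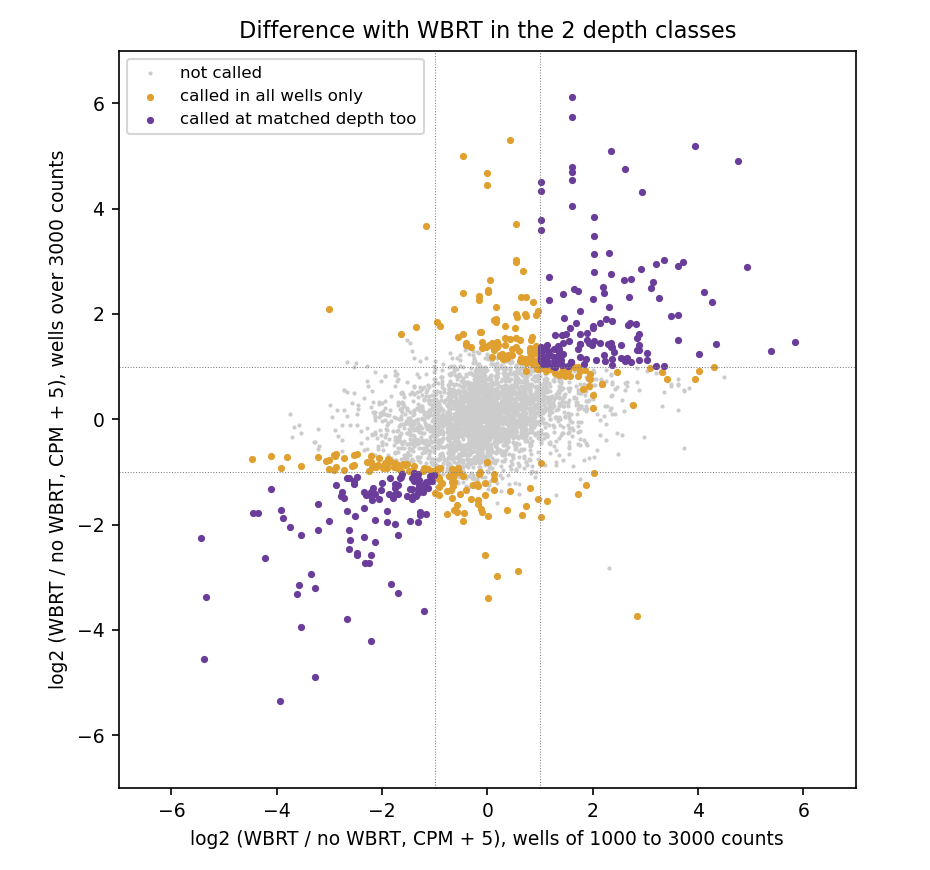
Log2 ratio (WBRT over none, CPM + 5) of the 3526 genes compared, in wells of 1000 to 3000 counts (x axis) and of over 3000 counts (y axis), with dotted lines at 2-fold. Purple points are the 143 higher and 105 lower genes called at matched depth, orange points those called in all wells only, and grey points were not called.

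The sort labelled BMDM, the macrophages of the series, was compared on another pair of plates with the same treatment and stage labels (262 wells with WBRT, 234 without). Its spike-in ratios were closer, with medians of 11.7 with WBRT and 13.2 without. There, 215 of 3663 genes (5.87%) were called higher with WBRT and 239 (6.52%) lower. Of the genes called higher in microglia, 60 (21.5%) were also called higher in BMDM, where they made up 27.9% of the calls, and 3 were called lower. Of those called lower in microglia, 48 (21.1%) were also called lower in BMDM, 20.1% of its calls, and 2 were called higher. Igf1 stood at 119 against 17.4 CPM in BMDM, and Lyz2 had a log2 ratio of 2.95 there. Ccl5 stood at 3.18 against 800.2 CPM in that sort, and Ly6a stood at 10.4 against 361 CPM. Ppfia4, a liprin, stood at 1.54 CPM with WBRT against 169 CPM in microglia and at 1.59 and 106.7 CPM in BMDM. Lpl (-0.20), Clec7a (0.21) and Cfb (0.32) had these log2 ratios in BMDM. Of the antiviral effectors, 13 were called lower there, at a median of -0.87, and of the alternative activation genes 11 were called higher, at a median of 1.56. Whether the 2 sorts differ in response was not tested, since each group is 1 plate.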

How the data were processed

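Single cells were sorted into 384-well plates and processed by the plate method cited in the labels, which marks transcripts with molecular identifiers and adds ERCC spike-in RNA. The deposited values are expected counts of transcripts per gene and well, not normalized by the authors. Of the nonzero values, 100.0% equalled a whole number of identifiers corrected for collisions among 4096, to within 0.0051. The build was GRCm38 per the submitters' processing notes, while the sources used here do not name the aligner, the counter or the use of strand. Overlapping and near-identical genes (Lyz1 and Lyz2, H2-K1 and H2-D1, the Ifit, Oasl and Ifi27l families, Gstm1) are therefore uncertain. The groups came from the titles, and no doublet caller was run.

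CPM are counts summed over kept wells scaled to their endogenous total, mitochondrial genes included, so 3 counts correspond to 4.62 CPM with WBRT and 3.43 CPM without. Folds have exact conditional Poisson intervals at 95%, on rounded counts, and shares of wells exact binomial ones. They cover counting error only and treat transcripts of a well as independent. Ratios on the log2 scale used CPM + 5 and so understate the differences of weakly expressed genes. Python 3.11.15, pandas 2.3.3 and scipy 1.17.1 were used, TMM factors came from edgeR 4.0.16 in R 4.3.3, and the computation was tested on simulated data.

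Named genes are the 15 highest and 15 lowest ratios at matched depth (at least 100 CPM in 1 library, and in at least 20% of its wells), 4 members of each list with the largest ratio and 2 with the highest level, 10 preset genes and markers. Other genes, such as those that complete a short count, were chosen after their values were seen, and a few members are not reported here. Members and the 27 lists were chosen with earlier results of these data known. Of 626 list and marker symbols, 584 were matched by symbol and 6 through RefSeq synonyms, and 36 were not found. The alternatives were other well filters, pseudocounts, level minimums and weights, with 4 subsets of wells added after seeing the data.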

Additional observations from a re-analysis of the deposited data

Results flagged for a closer look

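Of the plate of microglia with WBRT, 15 wells passed the count minimum but were left out for an ERCC share of at least 50%, and none was on the plate without WBRT. Their transcripts enter no comparison above. Keeping them gave counts of called genes within 1.5 times those reported.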

How the results depend on the processing

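The report gives 279 genes higher and 227 lower with WBRT, of which 143 and 105 at matched depth. With a pseudocount of 20 CPM these 4 counts were 169, 131, 68 and 69, with genes of at least 20 CPM 629, 503, 308 and 220, and with genes of at least 200 CPM 57, 46, 39 and 28. Wells with at least 1000 CPM of Malat1 gave 519 higher and 169 lower at matched depth, and wells of 1000 to 3000 counts gave 355 lower. Among the subsets added after seeing the data, an endogenous to ERCC ratio of 5 to 20 gave 450 higher and 201 lower at matched depth, Malat1 below 1000 CPM gave 553 lower and 305 lower at matched depth, and a ratio of 2 to 5 gave 370 lower. The share of calls that were higher was 55.1% as reported, 62.8% and 39.0% in wells above and below the Malat1 limit, and 61.5% and 36.8% at ratios of 5 to 20 and 2 to 5. TMM scaling shifted all log2 ratios by -0.05, by 0.17 in shallow wells and by -0.16 in deep wells, and gave 47.8% higher.

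Some named genes changed sign, on the log2 scale. With the top well left out this was Slc1a3 (-0.60), with Malat1 of at least 1000 CPM Bnip3 (-0.28), and in wells of 1000 to 3000 counts H2-Aa (0.58), H2-Eb1 (0.012) and Mki67 (1.14). With Malat1 below 1000 CPM they were Cxcl2 (-0.16), Gadd45g (-1.48), H2-Aa (0.61), Hspa1a (-1.84), Slc1a3 (-0.93) and Tnf (-0.0018). At a ratio of 2 to 5 they were Bnip3 (-0.56), Egln3 (-0.45), Gadd45g (-0.0075), H2-Aa (1.56), H2-Eb1 (0.21), Hspa1a (-1.08), Mki67 (0.60) and Nr4a2 (2.24). Without border-associated macrophage markers they were Cxcl2 (-1.73) and Slc1a3 (-0.89). The cause was not tested. No paired analysis was possible because each group is 1 library. Depth limits low genes, since 3 counts in shallow wells without WBRT are 26.6 CPM.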
